A study of Mus musculus with 6 samples.

Results

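The T cell genes described here are Cd3d, Cd3e, Cd3g, Cd4, Cd8a, Cd8b1, Lck, Zap70, Cd2 and Nkg7. They were found by their symbols in a table of gene expression in renal cortex, where each stands on 1 row, so they are 10 of 19176 rows. The libraries came from young adult male wild-type C57BL/6J mice in which the left renal pedicle had been clamped and released, with the right kidney removed the day before tissue was collected on day 14. In the UIRI group (unilateral ischemia-reperfusion injury) the mice received vehicle, ethanol in saline, and in the UIRI + BA group they received bruceine A (BA), a quassinoid from the plant Brucea javanica, both by intraperitoneal injection each day. The dose of BA was 1 mg/kg, and the labels of the libraries spell the compound brucine A. Each group held 3 libraries, sham kidneys were not analysed here, and the comparison is therefore of injured kidneys with and without BA. The question is whether T cell transcripts in the injured cortex differed between these groups.

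T cells recognise peptides through the T cell receptor, a pair of variable chains that cannot signal alone and are carried to the surface with the CD3 chains. Cd3d, Cd3e and Cd3g encode these invariant chains, Cd4 and the Cd8a and Cd8b1 pair encode the co-receptors that bind class II and class I MHC molecules, and Lck and Zap70 encode the kinases that act first after the receptor is engaged. Cd2 encodes an adhesion receptor of T cells and natural killer cells, and Nkg7 a granule membrane protein of cytotoxic T cells and natural killer cells. In kidneys that heal poorly after ischemia, T cells collect among macrophages and fibroblasts in the interstitium. The tissue was whole cortex and not sorted cells, so fewer T cells and less RNA per T cell cannot be told apart here.

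No member differed between the groups past the threshold. On the log2 scale 9 of the 10 genes were lower in UIRI + BA and Cd4 was higher, with a median difference of -0.13, against -0.01 over all genes, of which 51.1% were lower. With limma's test and Benjamini-Hochberg adjustment over all rows, 0 of the 10 had an adjusted p below 0.05, where the table as a whole gave 0%. The smallest adjusted p of any gene was 0.225. At an unadjusted p below 0.05 the count of members was also 0, with 10.3% of all genes passing, and edgeR's quasi-likelihood test and DESeq2 gave 0 members as well. The UIRI and UIRI + BA libraries overlapped for all 10 members, whereas 14.4% of all genes had groups that did not overlap. The 95% confidence intervals of the difference lay between -1 and 1 on the log2 scale for 9 of the 10 genes, and for Cd8b1 the lower bound was -1.04.

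The files hold gene symbols only and name no genome build, so positions are given from GENCODE M21 on GRCm38 by symbol. Cd3g (minus strand, 44969572 to 44980431), Cd3d (plus strand, 44981786 to 44987339) and Cd3e (minus strand, 44998740 to 45009627) are neighbours on chromosome 9, with 1354 bases between Cd3g and Cd3d and 11400 between Cd3d and Cd3e. Cd8b1 (71322788 to 71337494) and Cd8a (71373427 to 71379173) lie 35932 bases apart on the plus strand of chromosome 6, which also carries Cd4 on the minus strand (124864692 to 124888221). Lck (chromosome 4, 129548344 to 129573641) and Cd2 (chromosome 3, 101275899 to 101287939) are on the minus strand, and Zap70 (chromosome 1, 36761798 to 36782818) and Nkg7 (chromosome 7, 43437073 to 43438249) on the plus strand. Annotated genes overlap Cd3e (Gm48719, antisense, and Gm48720, same strand), Zap70 (Gm18828, opposite strand) and Lck (Mir8119, same strand). The strand setting used for counting is not given in the sources used here, so reads of the genes on the opposite strand may not be separated. Reads of Gm48720 and Mir8119 cannot be separated by strand under any setting. The values of Cd3e, Zap70 and Lck carry that uncertainty.

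The 3 CD3 genes were all lowest in the third UIRI + BA library and next lowest in the third UIRI library, and the 250 bases before the start of each are shown to let their control regions be compared. The sequences are those of RefSeq on GRCm38.p6, read 5′ to 3′ on the strand of the gene, and 7 of the 10 members had an entry. Capitals mark matches, on either strand, to 6 short motifs. The ETS motif was searched as AGGAAG and the RUNX motif as TGTGGT. The E-box was searched as CAGGTG and the GATA motif as AGATAA. The TCF motif was searched as CTTTGA and the TATA box as TATAAA. The windows are Cd3d at chr9:44981536-44981785 on the plus strand, Cd3g at chr9:44980432-44980681 and Cd3e at chr9:45009612-45009861, both on the minus strand. RefSeq starts Cd3e further into the gene than GENCODE does, so the last 16 bases of its window lie inside the gene as positioned above.
Cd3d: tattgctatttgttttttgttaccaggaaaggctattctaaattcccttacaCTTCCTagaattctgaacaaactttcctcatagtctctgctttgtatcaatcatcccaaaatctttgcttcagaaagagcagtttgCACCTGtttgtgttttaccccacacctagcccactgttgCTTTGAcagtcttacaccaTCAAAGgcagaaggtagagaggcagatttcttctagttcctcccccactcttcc
Cd3g: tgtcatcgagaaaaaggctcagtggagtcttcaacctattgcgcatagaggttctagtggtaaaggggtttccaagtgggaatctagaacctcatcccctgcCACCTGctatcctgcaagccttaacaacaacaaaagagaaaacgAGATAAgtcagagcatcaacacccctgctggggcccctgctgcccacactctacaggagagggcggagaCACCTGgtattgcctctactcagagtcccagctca
Cd3e: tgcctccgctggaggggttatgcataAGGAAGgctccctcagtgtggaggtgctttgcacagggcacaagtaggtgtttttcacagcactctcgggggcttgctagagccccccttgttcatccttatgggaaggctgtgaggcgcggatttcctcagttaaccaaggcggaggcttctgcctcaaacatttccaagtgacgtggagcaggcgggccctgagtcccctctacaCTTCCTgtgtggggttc

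The Cd3d window held 1 ETS, 1 E-box and 2 TCF matches, the Cd3g window 2 E-box matches and 1 GATA match, and the Cd3e window 2 ETS matches. None of the 3 windows held the RUNX or TATA letters, and no motif was in all 3. Among 32851 windows of the same length before annotated starts, 29.5% held the ETS letters, 17.2% the E-box, 13.8% TCF, 9.99% GATA, 14% RUNX and 12.4% TATA, so each is common by its letters alone. No motif match overlapped another in these windows.

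Values below are normalized counts, that is, reads on a gene divided by a scaling factor of the library. Cd3d stood at 247, 239.6 and 165.4 in UIRI replicates 1, 2 and 3, and at 184.2, 235.8 and 147.1 in UIRI + BA replicates 1, 2 and 3. The third library of each group was the low one, and the second UIRI + BA library lay just below the first and second of UIRI. The means were 217 ± 45.1 and 189 ± 44.6 (SD, n = 3 each), a log2 difference of -0.20 with a 95% interval of -0.67 to 0.26 (limma adjusted p = 0.727). Cd3g, the most abundant of the 3 by count, stood at 429.4, 365.6 and 283.1 in UIRI and at 348.3, 428.6 and 264 in UIRI + BA. The top value of each group was nearly the same, and the log2 difference was -0.06 with an interval of -0.50 to 0.39 (limma adjusted p = 0.929). Cd3e stood at 123.5, 121.5 and 98.03 in UIRI and at 129, 146.5 and 76.2 in UIRI + BA. Both the highest and the lowest Cd3e value were in UIRI + BA, so that its means were 114 ± 14.2 and 117 ± 36.6 while the difference of the log2 values was -0.01 (interval -0.55 to 0.53, limma adjusted p = 0.990).

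Cd8a and Cd8b1 took the same order over the libraries, and Cd4 took another. Cd4, the co-receptor of helper and regulatory T cells that macrophages and dendritic cells can also express, stood at 275.3, 260.9 and 295.7 in UIRI and at 314.4, 406 and 264 in UIRI + BA. The first and second UIRI + BA libraries were above every UIRI library and the third was among them. The means were 277 ± 17.5 and 328 ± 72.0, a log2 difference of 0.22 (interval -0.13 to 0.57, limma adjusted p = 0.623). Cd8a stood at 369.3, 332.9 and 256.8 in UIRI and at 289.4, 301.5 and 164.9 in UIRI + BA, and the third UIRI library lay below the first and second of UIRI + BA. Its log2 difference was -0.38 (interval -0.90 to 0.15), with an adjusted p of 0.585 by limma, the smallest of the 10 members. Cd8b1, the partner chain of Cd8a on conventional cytotoxic T cells, stood at 130.3, 128.2 and 72.3 in UIRI and at 81.4, 115.2 and 58.4 in UIRI + BA. Its log2 difference was also -0.38, with the widest interval of the members (-1.04 to 0.29, limma adjusted p = 0.658) and the fewest reads, 56 in the third UIRI + BA library.

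The kinases differed less. Lck, which phosphorylates the CD3 chains, stood at 440.7, 462.3 and 343.4 in UIRI and at 400.9, 493.2 and 306.8 in UIRI + BA. The UIRI + BA libraries reached past both ends of the UIRI range, and the log2 difference was -0.07 (interval -0.47 to 0.34, limma adjusted p = 0.902). Zap70, which docks on the phosphorylated chains and is also used by natural killer cells, stood at 137.1, 120.4 and 86.0 in UIRI and at 95.2, 129.2 and 87.7 in UIRI + BA. Its lowest value was in UIRI, and the log2 difference was -0.13 (interval -0.62 to 0.36, limma adjusted p = 0.837). Cd2 stood at 182.4, 186.7 and 157.2 in UIRI and at 166.6, 163.7 and 131.5 in UIRI + BA, with the first and second UIRI libraries above every UIRI + BA library. Its difference of -0.19 had the narrowest interval of the members (-0.51 to 0.13, limma adjusted p = 0.641). Nkg7 stood at 188.1, 160.8 and 119.4 in UIRI and at 112.7, 224 and 110.6 in UIRI + BA. The second UIRI + BA library was the highest of all 6 and its companions in UIRI + BA were the lowest, and the log2 difference was -0.12 (interval -0.75 to 0.51, limma adjusted p = 0.886).

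**Figure D1:**
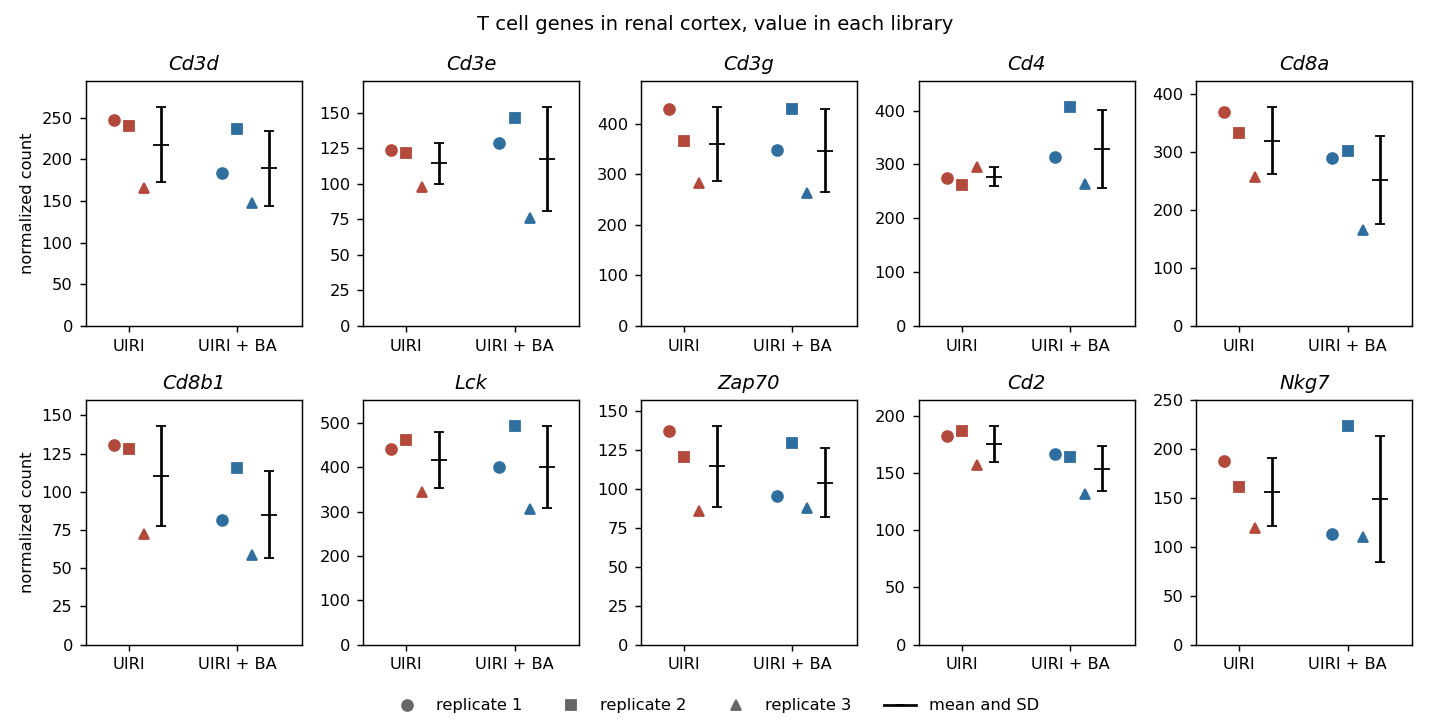
Normalized counts of the 10 T cell genes in each library, 1 panel per gene, with points for UIRI (n = 3) and UIRI + BA (n = 3), marker shapes for the replicate numbers, and bars for mean and SD. The groups overlap in every panel, and the third UIRI + BA library is the lowest of its group in all 10.

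**Figure D2:**
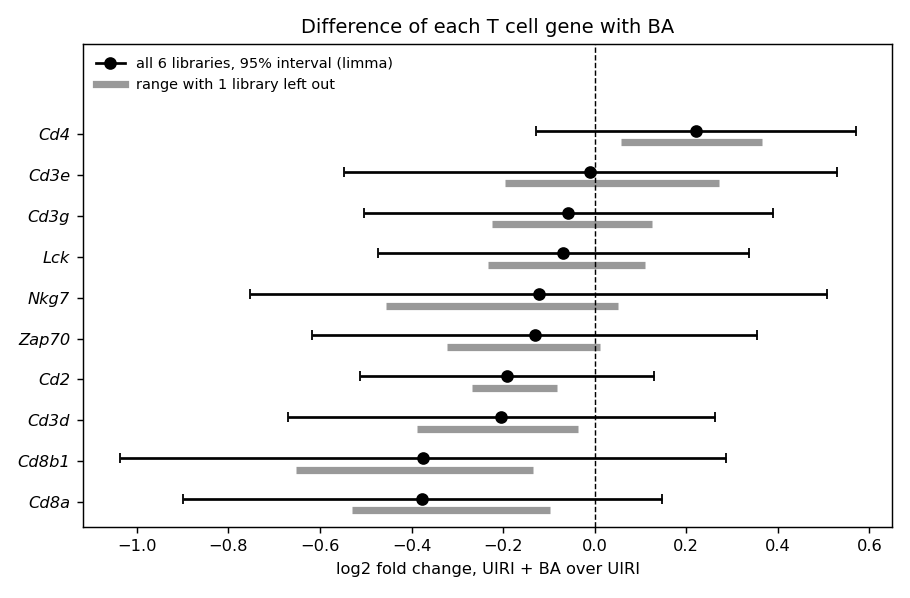
Difference of the log2 normalized counts, UIRI + BA minus UIRI, for the 10 T cell genes, with 95% confidence intervals from limma (black) and the range of estimates with 1 library left out (grey). Every interval crosses 0, with estimates from -0.38 for Cd8a and Cd8b1 to 0.22 for Cd4.

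The exact permutation test on single genes gave two-sided p-values of 0.3 or more for every member, where 0.1 is the smallest that 3 against 3 libraries allow. By estimate, the spread between libraries was above counting error for all 10 genes in both groups, which was not tested. The margin was small in UIRI for Cd4 (6.30% against 5.76%) and Cd2 (9.09% against 7.18%). Averaged over the libraries of a group, counting error alone gives a coefficient of variation of 4.67% to 11.8% for these genes. For single libraries, with 56 to 627 reads on a member, it is 13.4% to 3.99%. The coefficient was larger in UIRI + BA than in UIRI for 9 of the 10, from 6.30% to 21.9% for Cd4 and from 22.2% to 43.5% for Nkg7. With 3 libraries a group this difference in spread was not tested, and its share over all genes was not computed. The members do not count as separate observations of it. UIRI + BA replicate 3 was the lowest of its group for all 10, and UIRI replicate 3 for 9.

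Read per length, the order of the members changed. Divided by the merged length of the annotated exons, the mean over all 6 libraries was highest for Nkg7 (167 normalized counts per kilobase), then Lck (139), Cd3d (112), Cd3g (108), Cd2 (94.6), Cd8a (78.6), Cd4 (75.1), Cd8b1 (65.9), Zap70 (36.5) and Cd3e (28.4). All 9 pairs of neighbours in this order had ranges over libraries that overlapped. The merged length adds the exons of all annotated transcripts and so lowers genes with long alternative exons. Within the CD3 genes the level of Cd3e per length was below that of Cd3d and Cd3g in every library.

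Most members were low in the same libraries. UIRI replicate 3 was the lowest of its group for 9 of the 10 genes and UIRI + BA replicate 3 for all 10, while UIRI + BA replicate 2 was the highest of its group for 9. Summed over the members, the normalized counts were 2523, 2379 and 1877 in UIRI against 2122, 2644 and 1611 in UIRI + BA. Of the 45 pairs of members, the closest over the 6 libraries were Cd3d with Cd8b1 (Pearson r = 0.996) and Cd2 with Cd8a (r = 0.972). The 9 pairs with Cd4 ran from 0.02 with Cd2 to 0.617 with Cd3e. These correlations describe 6 libraries that differ in group and in the genes of other cells, and carry no test.

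Ratios between members were taken as a description, chosen after the values were known, and have no test. Cd8a per CD3 count (the sum of Cd3d, Cd3e and Cd3g) was 0.462, 0.458 and 0.470 in UIRI against 0.438, 0.372 and 0.338 in UIRI + BA. The groups did not overlap, as was so for 14.4% of all genes taken singly, and in every other ratio taken they did. Counting error alone gives this ratio a coefficient of variation of 5.6% to 9.2% per library, more than the 1.3% seen among the UIRI libraries. The nearest libraries of the groups, at 0.458 and 0.438, differed by less than that error. Cd4 per Cd8a was 0.745, 0.784 and 1.15 in UIRI against 1.09, 1.35 and 1.601 in UIRI + BA, with the third UIRI library inside the range of UIRI + BA. Cd4 per CD3 count was 0.344, 0.359 and 0.541 against 0.475, 0.501 and 0.542, again with overlap. Cd8a per Cd8b1 had a mean of 2.99 ± 0.498 in UIRI and 2.997 ± 0.493 in UIRI + BA (SD, n = 3 each). The CD3 count was 11.3%, 9.84% and 8.11% of Ptprc, the gene of the common leukocyte antigen CD45, in UIRI and 8.97%, 11.4% and 8.38% in UIRI + BA. As a percentage of Csf1r, a macrophage gene, it had means of 10.7% in UIRI and 11.4% in UIRI + BA. Nkg7 per CD3 count had means of 0.2250 and 0.2246.

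**Figure D3:**
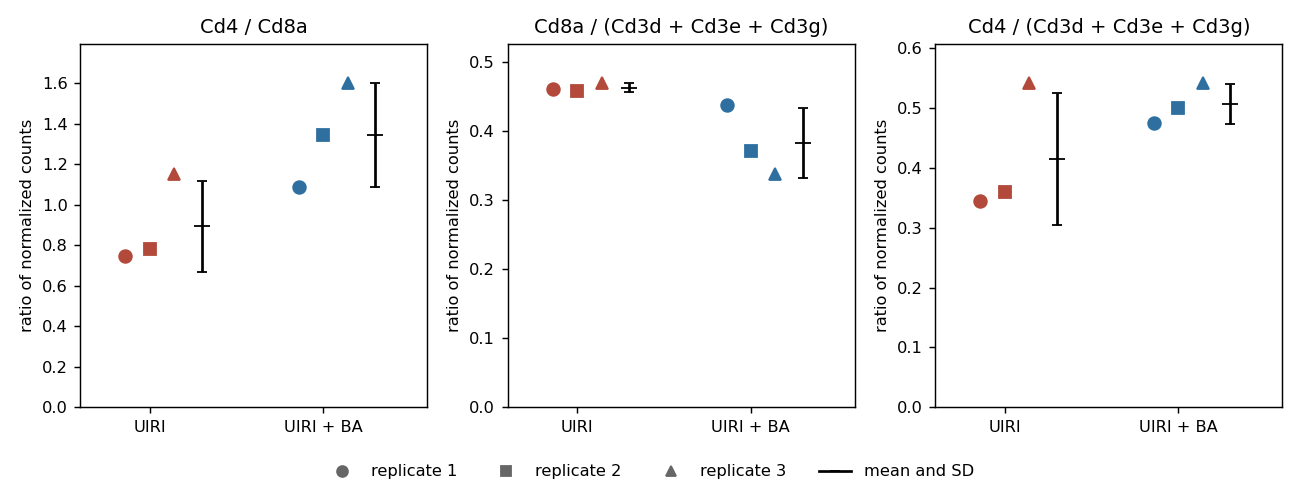
Ratios between T cell genes in each library, UIRI (n = 3) and UIRI + BA (n = 3), from normalized counts, with bars for mean and SD. Cd8a per CD3 count is 0.458 to 0.470 in UIRI and 0.338 to 0.438 in UIRI + BA, while Cd4 per Cd8a overlaps between the groups.

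The libraries differed in depth and in the genes of other cells. UIRI replicate 3 held 38124164 reads on genes, 2.04 times the median of the others, which held 16510720 to 20313529. It also stood nearer to UIRI + BA than the other UIRI libraries did for proximal tubule genes, with a mean log2 value of 11.3, against 10.5 and 10.6 in UIRI replicates 1 and 2 and 11.3 to 11.6 in the UIRI + BA libraries. All 10 proximal tubule genes were higher in UIRI + BA at an unadjusted p below 0.05, against 10.3% of all genes, with 0 at an adjusted p (limma), a median log2 difference of 0.70, and summed counts of 31733 to 47607 in UIRI and 54160 to 67529 in UIRI + BA. Without UIRI replicate 3 all 10 passed adjustment, with a median of 0.94, in a fit where 5.02% of all genes passed it. Urothelium genes, which mark the lining of the renal pelvis, were summed at 177 to 651 in UIRI and 81.4 to 410 in UIRI + BA and were highest in the third library of each group. Upk2 was at 0 in UIRI + BA replicates 1 and 2 and Upk3a in replicate 2, and no other gene of the lists was at 0 in any library. All 8 were lower by estimate, 0 passed at an unadjusted p below 0.05, and their median difference was -1.77 (-0.96 without UIRI replicate 3). Their part in the values of the T cell genes was not tested.

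Without UIRI replicate 3, limma called 962 genes at an adjusted p below 0.05, 5.02% of the table, and none was a member. Cd8a then stood at -0.53 (limma adjusted p = 0.195) and Cd8b1 at -0.65 (limma adjusted p = 0.158), both below 0.05 only before adjustment, as were 25.2% of all genes in that fit. The median of the members was -0.29, against 0.02 without UIRI + BA replicate 3 and -0.004 without UIRI replicate 1. Without UIRI + BA replicate 3, in which every member was lowest of its group, 5 members were lower and 5 higher, Cd8a stood at -0.10 and Cd8b1 at -0.14, and Cd4 stood at 0.37 at an unadjusted p below 0.05 (limma adjusted p = 0.555), a threshold that 8.41% of all genes passed. Without the third library of both groups, Cd4 stood at 0.41 at the same unadjusted threshold (limma adjusted p = 0.136), which 23.2% of all genes passed.

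The leukocyte lists put the T cell genes beside the other cells of the infiltrate. Mean log2 values of the T cell genes were 7.83, 7.75 and 7.37 in UIRI against 7.53, 7.88 and 7.14 in UIRI + BA, and those of the 10 pan-leukocyte genes were 11.5, 11.4 and 11.1 against 11.1, 11.3 and 10.9. Both lists were low in the third library of each group. Of all genes, 10.3% had an unadjusted p below 0.05 in the fit with all 6 libraries. All 10 pan-leukocyte genes were lower by estimate, Cd53 at an unadjusted p below 0.05, with a median of -0.22 and summed counts of 26505 to 34554 in UIRI and 24088 to 30777 in UIRI + BA. All 10 macrophage genes were lower, Mrc1 and Cx3cr1 at an unadjusted p below 0.05, with a median of -0.27 and sums of 91786 to 132240 against 87889 to 101132. Among them Adgre1, which encodes F4/80, had a mean of 3112 ± 297 in UIRI and 2785 ± 299 in UIRI + BA, and Csf1r, the receptor for colony stimulating factor 1, 6443 ± 478 and 5724 ± 150 (SD, n = 3 each).

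The remaining leukocyte lists were as follows. All 8 dendritic cell genes were lower, 2 at an unadjusted p below 0.05 (Siglech and Clec10a), with a median of -0.23 and sums of 5502 to 7290 against 5082 to 6408, and Flt3 had means of 262 ± 5.98 and 236 ± 37.4 (SD, n = 3 each). Of 7 neutrophil genes 4 had a row, all were lower and 3 had an unadjusted p below 0.05 (S100a8, S100a9 and Cxcr2), with a median of -0.60 and sums of 1249 to 1739 against 1035 to 1164. S100a8, an alarmin of neutrophils and monocytes, had a log2 difference of -0.77 (limma adjusted p = 0.291). Of 10 B cell genes 8 were lower, 2 at an unadjusted p below 0.05 (Cd22 and Bank1), with a median of -0.28 and sums of 482 to 637 against 414 to 505. Cd79a, a chain of the B cell receptor complex (11.5 to 25.8), and Ms4a1, which encodes the membrane protein CD20 (8.35 to 31.2), were low in all libraries. Of 7 plasma cell genes 6 had a row, 3 were lower and 3 higher with a median of 0.01 and sums of 2470 to 2614 against 2248 to 2477, and Jchain had means of 227 ± 53.7 and 185 ± 61.6 (SD, n = 3 each). In all these lists 0 genes passed adjustment with all 6 libraries, a fit in which 10.3% of all genes had an unadjusted p below 0.05. Without UIRI replicate 3, where 25.2% of all genes had an unadjusted p below 0.05 and 5.02% an adjusted one, all 10 macrophage and 7 of the 10 pan-leukocyte genes passed before adjustment. After adjustment 6 macrophage, 2 pan-leukocyte (Cd52 and Lsp1) and 2 neutrophil genes (S100a8 and S100a9) passed in that fit, all lower, and 0 B cell, plasma cell or dendritic cell genes. No difference between a list and the T cell genes was tested.

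The stromal lists were for lymphoid tissue and fibroblasts. Of 8 genes of lymphoid tissue stroma 6 had a row, 2 lower and 4 higher with a median of 0.01 (-0.14 without UIRI replicate 3), sums of 432 to 730 in UIRI and 488 to 690 in UIRI + BA, and 1 at an unadjusted p below 0.05. That gene, Cxcl13, which attracts B cells and follicular helper T cells, stood at 15.9, 15.7 and 15.3 in UIRI against 28.8, 25.8 and 20.9 in UIRI + BA (log2 difference 0.64, limma adjusted p = 0.450) with 14 to 28 reads per library. All 9 fibroblast genes were lower, with a median of -0.32 and sums of 94412 to 113276 against 69840 to 92157. Of these, 5 had an unadjusted p below 0.05. With all 6 libraries, 10.3% of all genes passed that unadjusted threshold. Col1a1 passed adjustment without UIRI replicate 3, a fit in which 5.02% of all genes did. None of the 5 adipocyte genes had a row.

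**Figure D4:**
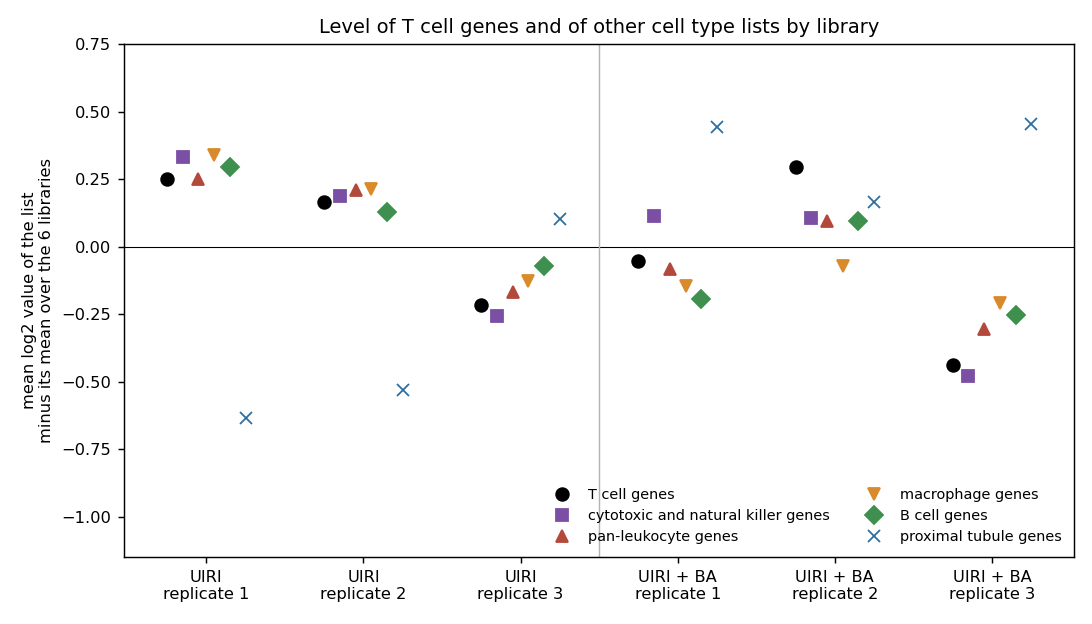
Mean log2 normalized count of the T cell genes and of 5 other lists (symbols) in each library, UIRI (n = 3) and UIRI + BA (n = 3), after subtracting the mean of each list over the 6 libraries. The T cell, cytotoxic and natural killer, pan-leukocyte, macrophage and B cell lists are all lowest in the third library of each group. The proximal tubule list is lowest in the first and second UIRI libraries.

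Further T cell genes came from 4 lists. The receptor itself was present in every library: Trac, the constant region of the alpha chain, stood at 290, 327 and 249 in UIRI against 286, 376 and 188 in UIRI + BA, and Trbc2, of the beta chain, at 327, 377 and 226 against 264, 365 and 195. Both were lowest in replicate 3 of each group, as the members mostly were. Cd247, the zeta chain, stood at 113, 125 and 80.0 against 83.9, 157 and 67.8. Of the 14 other receptor and co-receptor genes, 9 were lower and 5 higher, with a median of -0.10, and 2 had an unadjusted p below 0.05. Icos, a costimulatory receptor of activated T cells, was higher by 0.50 at 68.0, 54.0 and 85.4 in UIRI against 96.5, 110 and 84.5 in UIRI + BA (limma adjusted p = 0.465). Thy1, which fibroblasts and neurons also express, was lower by estimate at -0.39, with 1578, 1302 and 1330 against 859, 992 and 1413 (limma adjusted p = 0.477). Without the third library of both groups Thy1 stood at -0.63 (limma adjusted p = 0.0278). That fit was added after seeing the data. It called 557 genes after adjustment, and 23.2% of all genes passed before it.

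Of the 24 genes of T cell receptor signalling, 18 were lower and 6 higher, with a median of -0.08. Skap1, an adaptor that couples the receptor to integrins, was the 1 gene with an unadjusted p below 0.05 (-0.33, limma adjusted p = 0.380), and its groups did not overlap, at 237 to 266 in UIRI and 199 to 204 in UIRI + BA. Lat, the membrane adaptor phosphorylated by Zap70, stood at 216, 209 and 140 against 168, 241 and 117 with groups that overlapped. Of the 18 subset and homing genes, 11 were lower and 7 higher, with a median of -0.11. Ccr7, the homing receptor of naive and central memory T cells and of migrating dendritic cells, had a log2 difference of -0.54, at 171, 152 and 160.5 against 97.7, 115 and 120 (limma adjusted p = 0.291). Bcl11b, which encodes a regulator of T cell identity, stood at 155, 166 and 157 against 279, 219 and 162 (0.43, limma adjusted p = 0.484). Foxp3, the regulator of regulatory T cells, stood at 65.7, 48.4 and 60.8 against 53.9, 39.8 and 29.2 (-0.53, limma adjusted p = 0.515). Tcf7, a regulator of naive and memory T cells, stood at 495 to 534 against 449 to 487.

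Of the 16 cytotoxic and natural killer genes, 12 were lower and 4 higher, with a median of -0.21. Fasl, the ligand of the death receptor Fas, stood at 49.8, 43.9 and 41.1 in UIRI against 26.3, 33.4 and 28.2 in UIRI + BA (-0.60, limma adjusted p = 0.408), and Klrd1, which encodes CD94, at 334, 280 and 242 against 215, 230.5 and 216 (-0.36, limma adjusted p = 0.441). The groups of both did not overlap. With 1 library left out, the log2 difference ran from 0.34 to 0.66 for Icos, -0.60 to -0.24 for Thy1, -0.37 to -0.29 for Skap1, 0.24 to 0.63 for Bcl11b, -0.60 to -0.45 for Ccr7, -0.70 to -0.53 for Fasl and -0.47 to -0.24 for Klrd1. The value nearest 0 came without UIRI + BA replicate 1 for Thy1 and Bcl11b, and without UIRI replicate 1 for Klrd1. The granule genes Gzma and Prf1 were low, at 17.7 to 37.6 and 6.57 to 27.2 over the libraries, and so was the natural killer receptor gene Ncr1 at 17.2 to 40.5. Over the 4 lists together, 8 of 72 genes (11.1%) had an unadjusted p below 0.05 against 10.3% of all genes, 5 lower and 3 higher, and 0 passed adjustment with all 6 libraries. Groups did not overlap for 11 of the 72 (15.3%) against 14.4% of all genes. Both shares were near those of the whole table. With 1 library left out the count of 8 ran from 3 without UIRI replicate 1 and 5 without UIRI replicate 2 to 14 without UIRI replicate 3, a fit in which 25.2% of all genes passed.

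**Figure D5:**
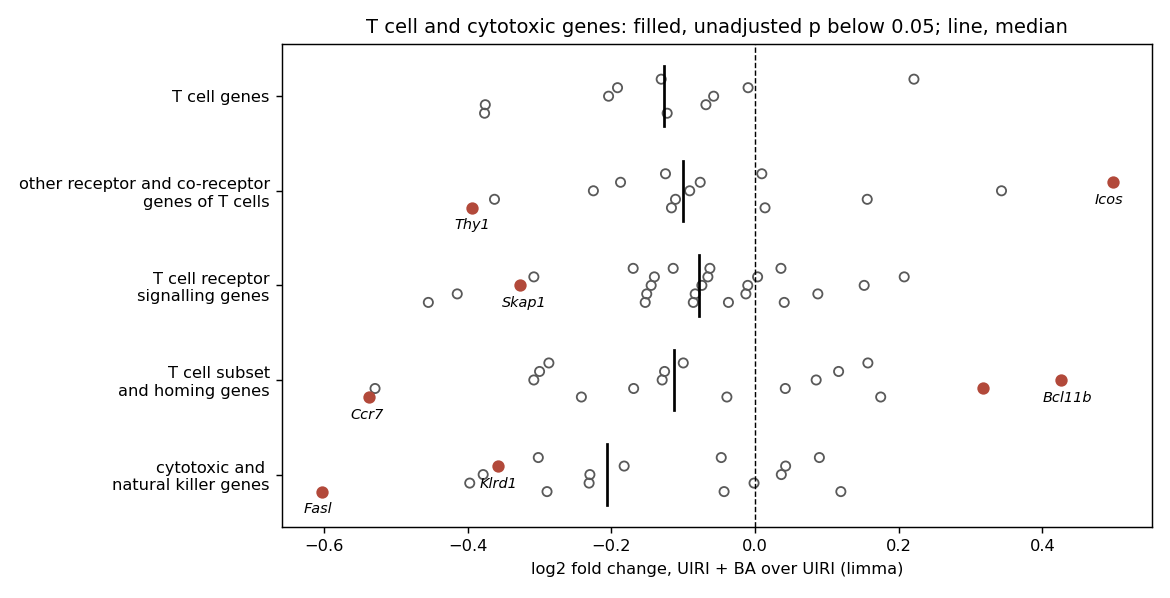
Difference of the log2 normalized counts, UIRI + BA minus UIRI, of each gene (points) in the T cell genes and the 4 further T cell and cytotoxic lists. Filled points have an unadjusted p below 0.05, some of them with their gene names, and vertical lines mark the medians. The medians of the 4 lists run from -0.21 to -0.08, beside -0.13 for the T cell genes.

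The genes most like the CD3 genes over the 6 libraries were ranked by Pearson correlation with the mean log2 value of Cd3d, Cd3e and Cd3g, among 13929 genes with a mean of at least 50. The 5 outside the members with the highest r were Zfp282 (0.992), Trpm4 (0.992), Hdac7 (0.991), Lat (0.989) and Pitpnm1 (0.980). Lat is a T cell adaptor. The others varied less than the CD3 genes, Zfp282 from 450 to 512 and Hdac7 from 1645 to 1943. With 6 libraries and so many genes ranked, high values of r are a description only.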

How the data were processed

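Libraries of renal cortex, 3 of UIRI and 3 of UIRI + BA, were compared, with groups read from the labels. The members and the gene lists were chosen with earlier results of these data known. Per the methods and labels, mRNA was enriched with oligo(dT), the authors used HISAT2 for alignment, FeatureCounts for counting and DESeq2 for testing. The genome build is not given in the sources used here. The labels and the methods name different RNA extraction kits. The deposited values are a signal, made by the authors as the read count of a gene divided by a size factor of the library. In every library 100% of values were whole reads within 0.01 of a read. The table holds 19176 rows and 19166 symbols, with at least 10 reads over the libraries. The authors' fold changes, p-values and enrichment tables were not used.

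limma 3.58.1 (R 4.3.3) was fitted with an intensity trend to log2 of the value plus 1, over all rows, without covariates. The fold changes are on that scale. p-values were adjusted by Benjamini-Hochberg over all rows, with a threshold of 0.05. Labels do not say whether libraries came from separate mice, and the study calls them independent biological replicates. If they were not separate mice, p-values measure only the spread between these libraries. Single genes also had an exact two-sided permutation test. Intervals and counting errors do not cover other sources of error.

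The fit was repeated with each library left out, with a pseudocount of 0.1, with values normalized by quantiles or scaled to the upper quartile, with a minimum of 1 in all libraries, and with the replicate number as a block. The recovered reads were also tested with DESeq2 1.42.0 and with edgeR 4.0.16 (quasi-likelihood, with and without a filter). Leaving out the third library of both groups was added after seeing the data. The tests were tried on simulated data first. Named genes were the 10 members, genes of the 4 further T cell and cytotoxic lists with an unadjusted p below 0.05, a fixed set of landmark genes, and the 5 genes most like the CD3 genes. Some genes that this rule covers are not reported here. Genes named in the other marker lists for their p were named after their values were seen. Library totals ran from 16510720 to 38124164 reads, and the 3 libraries per group limit the precision.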

Additional observations from a re-analysis of the deposited data

How the results depend on the processing

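No member passed adjustment under any alternative run. All genes called at an adjusted p below 0.05 numbered 0 in the report's fit, 213 by DESeq2, 6 with the replicate block, 0 to 962 with 1 library left out (962 without UIRI replicate 3), and 557 without the third library of both groups. edgeR's quasi-likelihood test called 0, with 1703 genes at an unadjusted p below 0.05 with the filter and 1856 without it. Members at an unadjusted p below 0.05 numbered 0 in the report's fit, 1 with the replicate block (Cd8a, limma adjusted p = 0.362, where 10.98% of all genes passed before adjustment), 0 to 2 with 1 library left out, and 1 without the third library of both groups. Same-numbered libraries had correlations of deviations of -0.240, 0.304 and 0.155, and those with different numbers ran from -0.413 to 0.235. With 3 libraries a group the deviations depend on each other, so these values cannot decide whether libraries with the same number share anything. The block was kept as an alternative.

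Of 150 fold changes of members under alternatives, 135 kept their direction and side of the threshold and 15 changed sign, all of Cd3e, Cd3g, Lck, Zap70 or Nkg7. Cd3e became 0.0414 by DESeq2, 0.0422 by edgeR with a filter and 0.0388 without, and 0.165 without the third library of both groups. With 1 library left out, the log2 difference ran from -0.196 to 0.272 for Cd3e, from -0.224 to 0.125 for Cd3g, from -0.232 to 0.110 for Lck, from -0.322 to 0.0115 for Zap70 and from -0.455 to 0.0508 for Nkg7. It ran from -0.531 to -0.0974 for Cd8a and from -0.652 to -0.136 for Cd8b1, in both nearest 0 without UIRI + BA replicate 3. Without UIRI replicate 1, 5 members were lower and 5 higher, as without UIRI + BA replicate 3. The cause was not tested. For each member, counting error averaged over a group was below the estimated spread between the libraries of that group, and the margin was not tested.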
